A study of Mus musculus with 18 samples.

Results

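Inflammasomes are protein platforms of the macrophage cytosol, and 6 genes of their core were followed here: the sensor Nlrp3, the adaptor Pycard (whose protein is known as ASC), the caspases Casp1, Casp4 and Casp8, and the pore protein Gsdmd. They were chosen by gene symbol. The array annotation paired 5 of the 6 symbols with 6 of the 22626 probe sets besides controls: 2 for Pycard and 1 each for Nlrp3, Casp1, Casp4 and Casp8. No probe set was named for Gsdmd, which is not analysed here. The 5 genes were tested among 12393. In the RefSeq annotation of GRCm38.p6, Nlrp3 (probe set 1425412_at) lies at chr11:59541569-59566955, Pycard (1417346_at and the dimmer 1417347_at) at chr7:127991373-127993867 and Casp8 (1424552_at) at chr1:58795233-58847503, while Casp1 (1449265_at) and Casp4 (1449591_at) are neighbours on chromosome 9.

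Transcripts were read on 18 Affymetrix arrays, 1 per culture and 3 per group, from macrophages that had been differentiated out of C57BL/6 mouse marrow with L929-conditioned medium. Cells of the SPIO-LPS group were kept for 24 h with SPIO, an iron oxide particle of 33 nm, washed, and given 10 ng/ml lipopolysaccharide (LPS), a component of the outer wall of Gram-negative bacteria, for 4 h. The Silica-LPS group had amorphous silica particles (50 nm) in place of iron oxide, and the LPS group plain medium before the same challenge. The SPIO and Silica groups received fresh medium without LPS after the particles, and the CON group had neither particles nor LPS. For CON no pretreatment or challenge time is given, so whether its cultures were handled alike is not known. This bears on every difference from CON and on the interactions. The series gives the particle concentration as 25 mg/ml, a unit that could not be checked here. Whether the biological replicates of a group came from separate animals is not stated, and the p-values therefore reflect only how far these cultures varied.

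In the textbook pathway, LPS acts first on the surface receptor TLR4, and the signal raises transcription of Nlrp3 and of the precursor of interleukin-1 beta, a step called priming. A later stimulus such as potassium efflux or lysosomal damage by particles lets NLRP3 gather ASC into a speck on which caspase-1 is activated. Caspase-1 cleaves the interleukin precursors and gasdermin D, whose fragments form pores. Mouse Casp4 encodes the protein also called caspase-11, which binds LPS in the cytosol and cleaves gasdermin D directly. Caspase-8 starts death-receptor apoptosis, restrains necroptosis and can also be recruited by ASC. Arrays read transcript levels, and neither assembly nor cleavage of these proteins was measured.

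A gene was called at an adjusted p below 0.05 in limma, with p-values adjusted over all 12393 genes of a contrast. Against CON, LPS changed 5 of the 5 measured genes, where 58.2% of all genes were called (22.2% higher and 36.1% lower). Nlrp3, Casp1, Casp4 and Casp8 rose and Pycard fell. After silica the response to LPS (Silica-LPS against Silica) had the same directions with 5 of 5 called and a background of 57.3%, and after iron oxide (SPIO-LPS against SPIO) again 5 of 5 were called, against 64.1%. Against CON, SPIO changed 3 of 5 genes (background 33.8%, with 19.6% higher and 14.2% lower): Casp1 rose, and Nlrp3 and Casp8 fell. In LPS-challenged cells, SPIO-LPS differed from LPS for 3 of 5 (background 32.7%, with 14.6% lower), with Pycard, Casp4 and Casp8 all lower. Silica changed 0 of 5 by limma, both against CON (background 4.02%) and in Silica-LPS against LPS (background 2.86%). At an unadjusted limma p below 0.05 the counts were 1 of 5 (17.9% of all genes) and 0 of 5 (16.8% of all genes). The particles differed from each other for 1 gene without LPS (SPIO against Silica, background 26.1%) and for 3 under LPS (SPIO-LPS against Silica-LPS, background 25.1%, with 12.9% lower). The response to LPS was itself different after iron oxide for 3 genes by an interaction term (background 8.8%), and after silica for 0 by limma (background 0.0161%). For the silica interaction 1 of 5 had an unadjusted limma p below 0.05, as had 6.8% of all genes. Comparisons against CON share its 3 arrays, as those against LPS share the LPS arrays, and are set side by side without a test of their likeness. The medians of the 5 log2 differences were 2.35 for LPS against CON, -0.13 for SPIO against CON and -0.19 for SPIO-LPS against LPS, beside -0.01, -0.01 and 0.01 over all genes.

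Nlrp3, the sensor, had log2 signals of 11.15, 10.95 and 10.84 in the LPS cultures, against 7.85, 8.12 and 7.86 in CON. All LPS arrays stood far above all CON arrays. The difference was 3.04 ± 0.11 on the log2 scale (SE, n = 3 per group), an 8.21-fold rise (limma adjusted p = 6.32e-13), and only 1.2% of all genes had a larger change in either direction. Without LPS, Nlrp3 was lower after iron oxide, at 7.51, 7.20 and 7.49 in SPIO, with every array below the CON range (-0.54 ± 0.11, 1.45-fold, limma adjusted p = 0.00116). Silica cultures gave 7.75, 7.60 and 7.70, also below each CON array and above each SPIO array. Their difference from CON did not pass (-0.26 ± 0.11, limma adjusted p = 0.229), nor did that between SPIO and Silica (-0.28 ± 0.11, limma adjusted p = 0.0705).

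Under LPS this order was not seen for Nlrp3. The signals were 11.03, 11.41 and 11.16 in SPIO-LPS and 11.22, 11.20 and 11.15 in Silica-LPS, against 11.15, 10.95 and 10.84 in LPS. The Silica-LPS arrays lay at or just above the highest LPS array and the SPIO-LPS arrays overlapped LPS, and neither difference passed: 0.22 ± 0.11 for SPIO-LPS against LPS (95% interval -0.01 to 0.46, limma adjusted p = 0.138) and 0.21 ± 0.11 for Silica-LPS against LPS (-0.02 to 0.45, limma adjusted p = 0.35). From their own baselines, the cells raised Nlrp3 by 3.80 ± 0.11 after iron oxide (13.9-fold) and by 3.51 ± 0.11 after silica (11.4-fold), beside the 8.21-fold rise after plain medium. The interaction of iron oxide with LPS passed (0.76 ± 0.15, limma adjusted p = 0.00439). The interaction of silica with LPS was 0.47 ± 0.15 and did not pass (95% interval 0.14 to 0.80, limma adjusted p = 0.519), although 0.508% of all genes had a larger one.

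Pycard encodes the adaptor that links sensor and caspase. On its brighter probe set it read 10.13, 10.11 and 10.15 in LPS, against 10.41, 10.36 and 10.42 in CON. The LPS arrays lay just below the CON arrays, a fall of 0.27 ± 0.040 on the log2 scale (limma adjusted p = 2.59e-05). That call rested on the scaling between arrays: with cyclic loess the difference was -0.10 (adjusted p = 0.0523).

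With iron oxide before LPS, Pycard was lower still, at 9.56, 9.53 and 9.52 in SPIO-LPS, against 10.13, 10.11 and 10.15 in LPS. The SPIO-LPS arrays were the lowest of all 18 on this probe set. The difference was -0.59 ± 0.040, or 1.50-fold (limma adjusted p = 1.82e-08), and 5.12% of all genes changed more in that comparison. SPIO without LPS gave 10.39, 10.44 and 10.45, overlapping CON, with a difference of 0.03 ± 0.040 (95% interval -0.06 to 0.12, limma adjusted p = 0.609). The response to LPS was -0.89 ± 0.040 after iron oxide, beside -0.27 after plain medium, and the interaction was -0.62 ± 0.057 (limma adjusted p = 3.53e-06). Silica-LPS cultures stood at 10.00, 10.11 and 10.02, overlapping LPS (-0.09 ± 0.040, limma adjusted p = 0.301), and SPIO-LPS lay below Silica-LPS (-0.50 ± 0.040, limma adjusted p = 2.02e-07).

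The second Pycard probe set was dim, with group means from 2.87 in SPIO-LPS to 3.63 in SPIO, where the lowest signal of any array was 2.03. Fitted among all probe sets, it gave the same direction for the interaction of iron oxide with LPS (-0.57 ± 0.15, limma adjusted p = 0.0368). It did not pass for SPIO-LPS against LPS (-0.18 ± 0.11, limma adjusted p = 0.261) or for LPS against CON (-0.20 ± 0.11, limma adjusted p = 0.139). For SPIO against CON it was called higher (0.39 ± 0.11, limma adjusted p = 0.0124), where the brighter probe set was not, and so was the mean of both probe sets (0.21, adjusted p = 0.00916). The probe sets thus differed in which comparison with iron oxide passed.

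**Figure D1:**
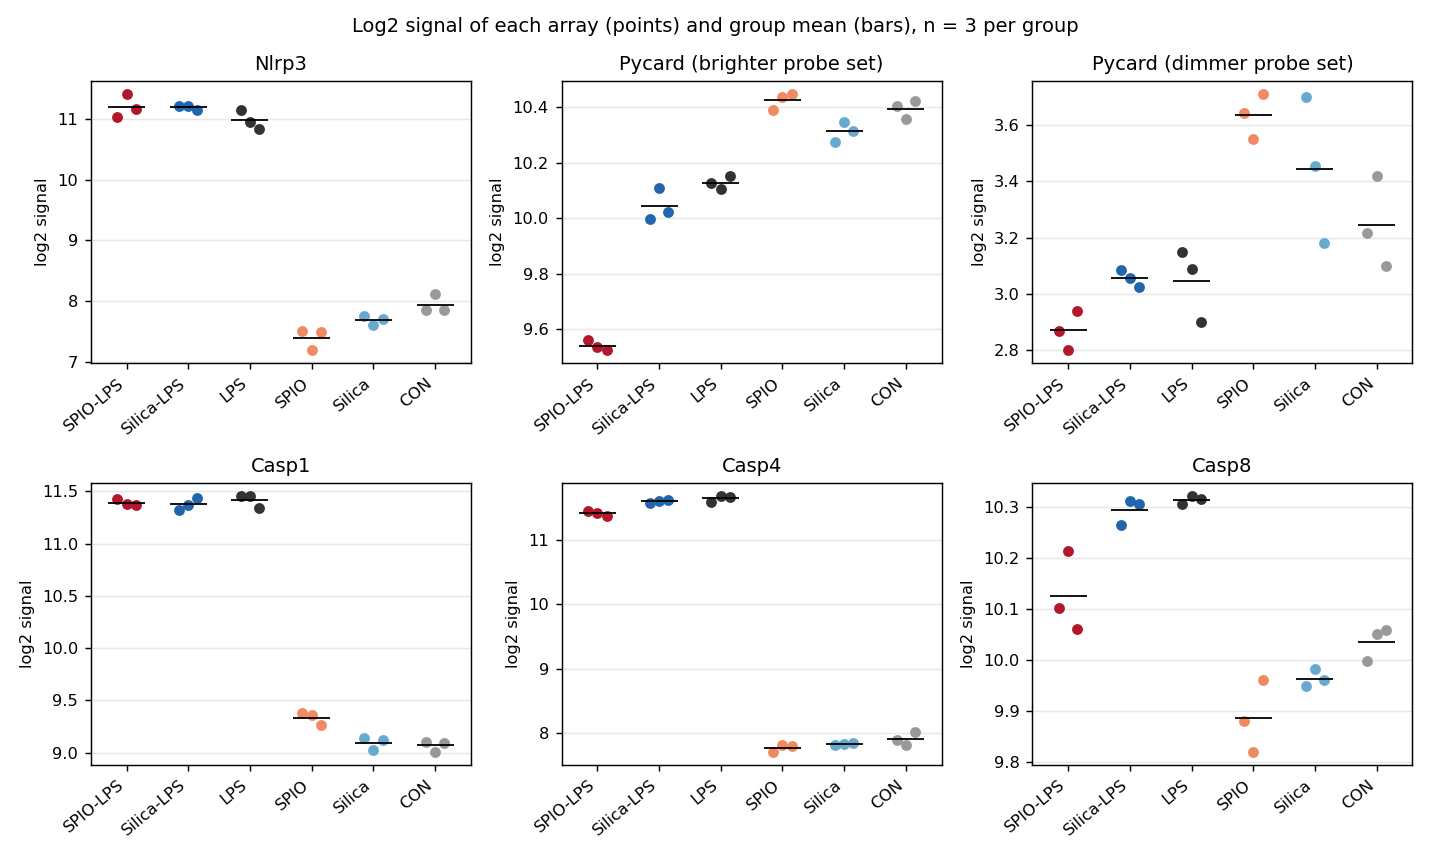
Log2 signal of the 6 probe sets on each of the 18 arrays (points, 3 per group) with the group mean (bars); each panel has its own vertical axis. Arrays with LPS lie above all without it for Nlrp3, Casp1, Casp4 and, by little, Casp8. For Pycard on the brighter probe set they lie below, and lowest in SPIO-LPS at 9.52 to 9.56. Casp8 spans less than 1 unit over all arrays.

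Casp1, the protease of the canonical pathway, read 11.46, 11.45 and 11.34 in LPS, against 9.11, 9.01 and 9.10 in CON. The groups were far apart, a rise of 2.35 ± 0.051 on the log2 scale (5.09-fold, limma adjusted p = 1.19e-15). Casp1 was called higher after iron oxide alone. SPIO cultures had 9.38, 9.36 and 9.26, against 9.11, 9.01 and 9.10 in CON, so all 3 lay above the CON arrays (0.26 ± 0.051, limma adjusted p = 0.000843). They also lay above the Silica arrays at 9.14, 9.03 and 9.12 (0.24 ± 0.051, limma adjusted p = 0.00263). Silica itself differed from CON by 0.02 ± 0.051 (95% interval -0.08 to 0.13, limma adjusted p = 0.861).

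Under LPS the 3 pretreatments gave overlapping Casp1 levels. The signals were 11.42, 11.38 and 11.37 in SPIO-LPS and 11.32, 11.37 and 11.44 in Silica-LPS, against 11.46, 11.45 and 11.34 in LPS. The difference was -0.03 ± 0.051 for SPIO-LPS (95% interval -0.14 to 0.08) and -0.04 ± 0.051 for Silica-LPS (-0.15 to 0.07), with limma adjusted p = 0.736 and 0.754. From the higher baseline, the rise with LPS after iron oxide was 2.06 ± 0.051 (4.16-fold). Its interaction was -0.29 ± 0.072 (limma adjusted p = 0.0183), and without CON replicate 2 it was -0.26 (adjusted p = 0.053).

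Casp4, the sensor and protease of cytosolic LPS, had the largest rise of the 5 genes in LPS against CON. It read 11.58, 11.68 and 11.65 in LPS, against 7.89, 7.82 and 8.02 in CON, a 13.3-fold difference (3.73 ± 0.051, limma adjusted p = 8.36e-18), and 0.702% of all genes changed more. After iron oxide the LPS-challenged level was slightly lower, at 11.45, 11.41 and 11.37 in SPIO-LPS, below every LPS array (-0.23 ± 0.051, 1.17-fold, limma adjusted p = 0.00239). Silica-LPS cultures, at 11.57, 11.59 and 11.62, overlapped LPS (-0.05 ± 0.051, 95% interval -0.15 to 0.06, limma adjusted p = 0.717). Without LPS, Casp4 stood at 7.71, 7.81 and 7.81 in SPIO and 7.82, 7.83 and 7.85 in Silica, against 7.89, 7.82 and 8.02 in CON. Neither passed, with -0.13 ± 0.051 for SPIO (limma adjusted p = 0.0548) and -0.08 ± 0.051 for Silica (limma adjusted p = 0.476). Each SPIO array lay just below the lowest CON array, and the difference was called without CON replicate 2 (-0.18, adjusted p = 0.0176), with a variance trend (adjusted p = 0.0229), with dim genes left out (adjusted p = 0.0293) and with cyclic loess (-0.16, adjusted p = 0.0239). The interactions with LPS were -0.10 ± 0.072 for iron oxide (limma adjusted p = 0.523) and 0.03 ± 0.072 for silica (limma adjusted p = 0.962). The small deficit of SPIO-LPS was thus not shown to differ from that of SPIO.

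Casp1 and Casp4 are neighbours in the RefSeq annotation of GRCm38.p6. Casp1 lies at chr9:5298517-5307281 and Casp4 begins 1567 bases after its end, at chr9:5308849-5336791. Casp12, the next gene of this caspase cluster, follows 8650 bases further on, at chr9:5345442-5373034. The 3 neighbours shared the direction of the response to LPS. Without LPS they did not share that to iron oxide. Casp12 read 7.32, 7.22 and 7.25 in LPS, against 6.30, 6.43 and 6.33 in CON (0.91 ± 0.091, limma adjusted p = 2.13e-07). It was lower in SPIO than in CON (-0.53 ± 0.091, limma adjusted p = 0.000271) and lower in SPIO-LPS than in LPS (-0.80 ± 0.091, limma adjusted p = 4.3e-06). Casp1 rose by 0.26 in SPIO against CON, and Casp4 was at -0.13 without passing. In SPIO-LPS against LPS, Casp4 was lower like Casp12 (-0.23), and Casp1 did not pass (-0.03).

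Sequence upstream of the start sites is shown for the 4 genes whose window lay wholly before the annotated gene, because 3 of them rose together under LPS while Pycard fell. Windows of 250 bases end at the base before the start site, are taken from RefSeq's GRCm38.p6, and read 5′ to 3′ on the gene's own strand. They are chr9:5308599-5308848 on the plus strand for Casp4, chr9:5298267-5298516 on the plus strand for Casp1, chr11:59541319-59541568 on the plus strand for Nlrp3 and chr7:127993868-127994117 on the minus strand for Pycard. Capitals mark matches to the NF-kB consensus, the binding pattern of the transcription factor activated downstream of TLR4.
Casp4: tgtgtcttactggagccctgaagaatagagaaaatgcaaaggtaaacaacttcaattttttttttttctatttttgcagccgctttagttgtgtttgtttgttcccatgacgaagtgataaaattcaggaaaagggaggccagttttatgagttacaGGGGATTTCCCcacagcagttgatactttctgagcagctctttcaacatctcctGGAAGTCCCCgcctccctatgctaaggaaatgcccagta
Nlrp3: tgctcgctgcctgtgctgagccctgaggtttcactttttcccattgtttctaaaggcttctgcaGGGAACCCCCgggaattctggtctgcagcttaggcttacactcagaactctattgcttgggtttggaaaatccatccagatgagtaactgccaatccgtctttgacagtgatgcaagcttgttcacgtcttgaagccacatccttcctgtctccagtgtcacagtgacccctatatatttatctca
Casp1: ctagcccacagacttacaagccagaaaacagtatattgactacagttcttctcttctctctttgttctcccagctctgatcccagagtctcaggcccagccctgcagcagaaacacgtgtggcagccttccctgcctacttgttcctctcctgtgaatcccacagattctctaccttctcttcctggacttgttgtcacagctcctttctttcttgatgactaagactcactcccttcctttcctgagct
Pycard: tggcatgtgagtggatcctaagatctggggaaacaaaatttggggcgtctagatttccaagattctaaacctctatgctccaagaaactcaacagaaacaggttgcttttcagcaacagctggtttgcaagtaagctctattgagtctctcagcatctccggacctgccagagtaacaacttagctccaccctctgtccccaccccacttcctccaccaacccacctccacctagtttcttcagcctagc

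In the Casp4 window the consensus matched at bases -93 to -84 and at -92 to -83 from the start site, which overlap, and again at -39 to -30 on the opposite strand. The Nlrp3 window held 1 match at -186 to -177, whose letters fit on both strands. The windows of Casp1 and Pycard held none, and neither did that of Casp8 or a second Nlrp3 window at chr11:59542436-59542685, inside the annotated gene. Over all 32851 promoter windows of this length, 7.25% held at least 1 match on either strand. The core of the interferon-stimulated response element (found in 2.98% of windows) and the gamma-activated site (TTCNNNGAA, found in 7.02%) were searched on both strands too. Neither occurred in any window given for the 5 genes, including second windows of Nlrp3 and Casp4 and the window of Casp8, which lies inside the annotated span of that gene. A match is a description of letters, and a window without one says nothing of the factor.

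Casp8, the initiator caspase, rose least of the 4 genes that LPS raised. It read 10.30, 10.32 and 10.31 in LPS, against 10.00, 10.05 and 10.06 in CON. The groups were separate but close, a rise of 0.28 ± 0.046 on the log2 scale (1.21-fold, limma adjusted p = 6.52e-05), and 48% of all genes changed more. After iron oxide it was lower with and without LPS. SPIO-LPS had 10.10, 10.21 and 10.06, against 10.30, 10.32 and 10.31 in LPS (-0.19 ± 0.046, 1.14-fold, limma adjusted p = 0.00494). SPIO had 9.88, 9.82 and 9.96, against 10.00, 10.05 and 10.06 in CON (-0.15 ± 0.046, 1.11-fold, limma adjusted p = 0.0209). Fitted on the 2 groups alone, these gave adjusted p = 0.0645 for SPIO-LPS and 0.0768 for SPIO, and the SPIO call was also lost without CON replicate 2 or 3 or SPIO replicate 1 or 2 (adjusted p from 0.0511 to 0.106). Silica-LPS had 10.26, 10.31 and 10.31 and Silica 9.95, 9.98 and 9.96, with differences of -0.02 ± 0.046 from LPS and -0.07 ± 0.046 from CON that did not pass (limma adjusted p = 0.877 and 0.453). The rise with LPS was 0.24 ± 0.046 after iron oxide and 0.33 ± 0.046 after silica, with interactions of -0.04 ± 0.065 and 0.05 ± 0.065 (limma adjusted p = 0.815 and 0.921).

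**Figure D2:**
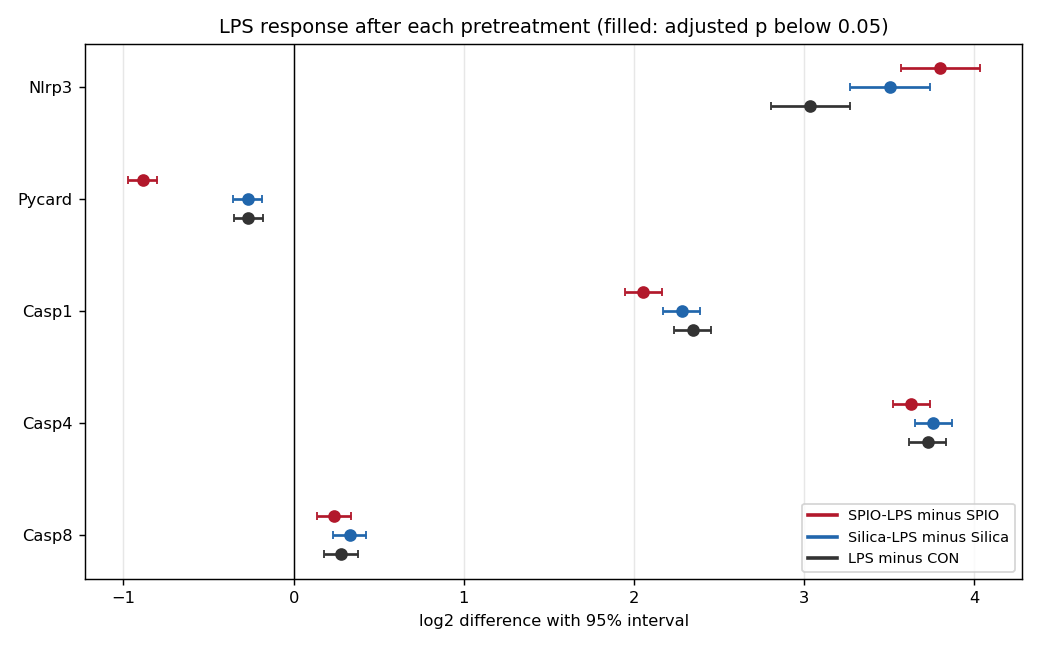
Log2 difference with LPS and its 95% interval for the 5 measured genes, after iron oxide, silica or plain medium (LPS minus CON). Filled points are called. Nlrp3 and Pycard show the widest spacing between pretreatments, at 3.80, 3.51 and 3.04 for Nlrp3 and at -0.89, -0.27 and -0.27 for Pycard, in the order iron oxide, silica, plain medium.

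The 3 genes on which the particles differed under LPS were Pycard, Casp4 and Casp8, each lower in SPIO-LPS than in Silica-LPS. The Casp4 and Casp8 differences were -0.19 ± 0.051 and -0.17 ± 0.046 (limma adjusted p = 0.0139 and 0.0134). Both calls were lost without SPIO-LPS replicate 3, at -0.16 for Casp4 (adjusted p = 0.0553) and -0.14 for Casp8 (adjusted p = 0.0637). On the 2 groups alone the Casp8 difference had adjusted p = 0.0788. The Pycard difference of -0.50 exceeded the spread between arrays in every alternative fit of its brighter probe set. It did not pass on the dimmer one (-0.19 ± 0.11, adjusted p = 0.263).

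**Figure D3:**
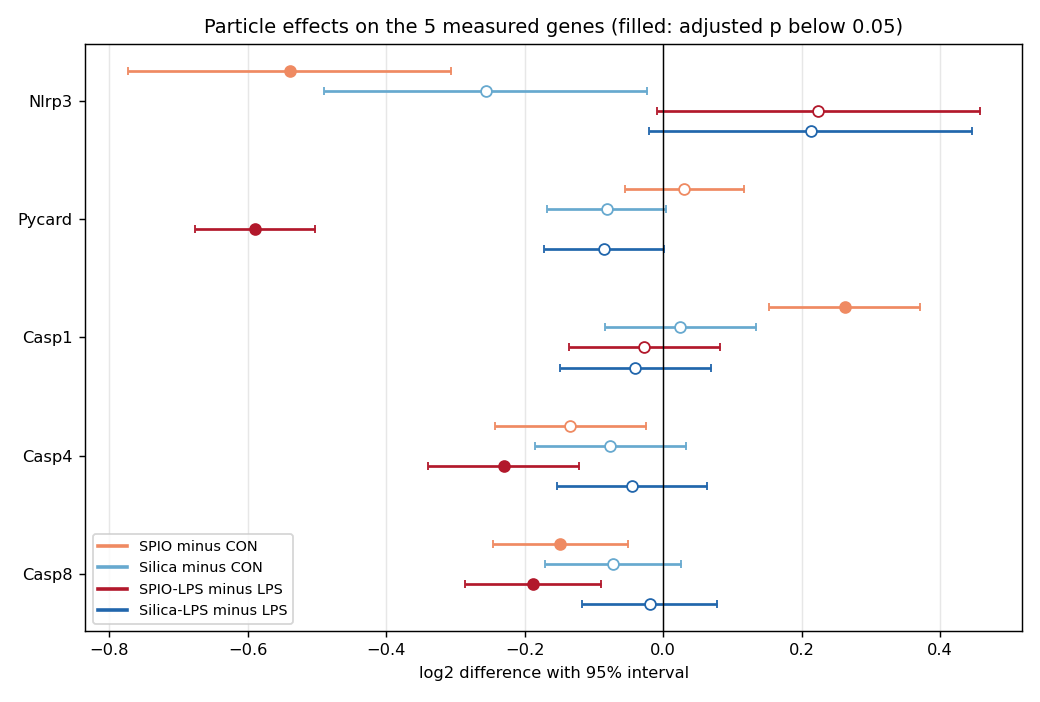
Log2 differences between particle-treated cells and their controls, with 95% intervals, for the 5 measured genes without LPS (SPIO or Silica minus CON) and with LPS (SPIO-LPS or Silica-LPS minus LPS); filled points are called. The largest differences are those of Pycard in SPIO-LPS at -0.59 and Nlrp3 in SPIO at -0.54, and no silica point is filled.

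Ranked by mean signal, Nlrp3 ran from SPIO-LPS, Silica-LPS and LPS through CON and Silica to SPIO, and only the arrays of SPIO-LPS and Silica-LPS overlapped between neighbours. Casp4 ran from LPS, Silica-LPS and SPIO-LPS through CON and Silica to SPIO, with overlap between LPS and Silica-LPS and between CON and Silica. Casp8 had the same order of groups, with overlap between LPS and Silica-LPS and between Silica and SPIO. Casp1 was highest in LPS, SPIO-LPS and Silica-LPS, which overlapped as neighbours, followed by SPIO and then by Silica and CON, which overlapped. Pycard ran the other way, from SPIO and CON (overlapping) to Silica, then LPS and Silica-LPS (overlapping) and last SPIO-LPS.

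Among all genes, those with the pattern most like Nlrp3 over the 18 arrays were Cxcl10, Oasl1 and Parp14, with Pearson correlations of 0.997, 0.997 and 0.996. For Casp4 they were Isg20, Ccl4 and Usp18 (each 0.999), and for Casp1 they were Pim1, Nt5c3 and Car13 (0.999, 0.999 and 0.998). For Casp8 the most alike were Fcgr4, Spsb1 and Klf3 (0.972, 0.971 and 0.969), and for Pycard Fcgr3, Lpxn and Rab31 (0.974, 0.971 and 0.964). Among the members themselves, Casp1 and Casp4 correlated at 0.994, Nlrp3 and Casp4 at 0.991, and Pycard with Nlrp3 at -0.80. These values describe points that share arrays and are dominated by the contrast between cells with and without LPS.

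A wider list of 76 inflammasome and caspase genes, written from general knowledge, was followed for context, and 53 were measured. LPS raised 33 of the 53 and lowered 8, with a median log2 difference of 0.49 beside -0.01 over all genes, of which 22.2% rose and 36.1% fell. Against CON, SPIO raised 16 and lowered 18 (median -0.01; 19.6% and 14.2% of all genes), and Silica raised 2 and lowered 2 (median -0.01; 4.02% of all genes called). Against LPS, SPIO-LPS was higher for 12 and lower for 11 (median -0.00058; 32.7% of all genes called), and Silica-LPS was higher for 1 (2.86% of all genes called). The interaction with LPS was called for 16 genes after iron oxide (10 higher, 6 lower), beside 8.8% of all genes. After silica it was called for 0 by limma (0.0161% of all genes). There 8 had an unadjusted limma p below 0.05, as had 6.8% of all genes.

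The receptors and adaptors of priming moved in different directions with LPS. Of 4 measured, 3 rose and 1 fell, where 22.2% of all genes rose and 36.1% fell. Myd88, an adaptor of TLR4, rose by 2.62 ± 0.043 and Cd14, which hands LPS to the receptor, by 1.56 ± 0.040, while Tlr4 fell (-0.75 ± 0.049; limma adjusted p = 4.94e-17, 9.31e-15 and 1.27e-09). Cd14 read 11.24, 11.30 and 11.34 in SPIO, against 12.07, 12.09 and 12.12 in CON, clearly lower after iron oxide (-0.80 ± 0.040, limma adjusted p = 9.91e-10). Under LPS it stood at 13.59, 13.63 and 13.65 in SPIO-LPS, against 13.65, 13.67 and 13.63 in LPS, and did not pass (-0.02 ± 0.040, limma adjusted p = 0.7). Tlr4 was higher in SPIO than in CON (0.22 ± 0.049, limma adjusted p = 0.00287) and in Silica than in CON (0.21 ± 0.049, limma adjusted p = 0.0273). The silica call was lost in a fit on Silica and CON alone, and without CON replicate 2 or Silica replicate 1, where limma called 0 listed genes higher in place of 2, and without Silica replicate 2 or 3 it called 1 higher.

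Of 6 other sensors, LPS raised 4 and lowered 0, beside 22.2% and 36.1% of all genes. Mefv, which encodes the sensor pyrin, rose 19.1-fold (4.25 ± 0.078, limma adjusted p = 1.59e-16), and Aim2, a sensor of cytosolic DNA, rose 4.62-fold (2.21 ± 0.081, limma adjusted p = 7.74e-13). Iron oxide set these sensors apart: Mefv was lower in SPIO than in CON (-0.85 ± 0.078, limma adjusted p = 5.18e-07) and Aim2 higher (0.48 ± 0.081, limma adjusted p = 0.000236). Naip5, a receptor for bacterial flagellin, was higher than in CON in SPIO (0.50 ± 0.050, limma adjusted p = 1.54e-06) and in Silica (0.23 ± 0.050, limma adjusted p = 0.0173), a silica call that was lost in the same 3 fits as that of Tlr4. Mefv stayed lower under LPS, at 10.13, 10.13 and 10.16 in SPIO-LPS, against 10.86, 10.85 and 10.99 in LPS (-0.76 ± 0.078, limma adjusted p = 1.77e-06).

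Among 8 cofactors and regulators of NLRP3, the largest particle effect was that of Panx1, a membrane channel that releases ATP. It read 9.51, 9.64 and 9.66 in SPIO, against 8.16, 8.26 and 8.27 in CON, a 2.59-fold rise (1.37 ± 0.061, limma adjusted p = 2.96e-10). Under LPS it read 9.48, 9.45 and 9.58 in SPIO-LPS, against 7.63, 7.59 and 7.80 in LPS, a 3.56-fold difference (1.83 ± 0.061, limma adjusted p = 6.92e-12). LPS alone lowered Panx1 (-0.56 ± 0.061, limma adjusted p = 6.45e-07), and all SPIO and SPIO-LPS arrays stood above all others. Txnip, a redox-regulated protein reported to bind NLRP3, fell with LPS (-1.90 ± 0.043, limma adjusted p = 2.02e-15). It was lower in SPIO than in CON (-0.31 ± 0.043, limma adjusted p = 4.61e-05) and higher in SPIO-LPS than in LPS (0.41 ± 0.043, limma adjusted p = 2.24e-06). Nek7, a kinase that NLRP3 requires, fell with LPS (-0.48 ± 0.038, limma adjusted p = 1.47e-08) and was slightly higher in SPIO than in CON (0.26 ± 0.038, limma adjusted p = 7.42e-05).

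Guanylate binding proteins, which help caspase-11 to reach LPS of bacterial membranes, and the related immunity GTPases Igtp, Irgm1 and Irgm2, some of which regulate them, rose with LPS in 5 of 5 cases, with Gbp2 at 5.09, Gbp3 at 5.01 and Igtp at 4.00 on the log2 scale. Of all genes, 22.2% rose with LPS. In SPIO 4 of the 5 listed here were lower than in CON (14.2% of all genes), with Gbp2 at -0.72 and Gbp3 at -0.73. In SPIO-LPS against LPS 0 of 5 were called by limma (32.7% of all genes). Silica changed 0 of 5 against CON by limma (4.02% of all genes).

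Among the interleukin-1 and interleukin-18 genes, which hold the caspase-1 substrates Il1b and Il18, their relative Il1a, the antagonist Il1rn and Il18bp, whose protein binds interleukin-18, 5 of 5 rose with LPS. Of all genes, 22.2% rose. Il1b, the precursor of interleukin-1 beta, read 13.80, 13.82 and 13.61 in LPS, against 7.25, 6.96 and 7.15 in CON, a 98.9-fold rise (6.63 ± 0.082, limma adjusted p = 3.02e-18). Il1a rose 123.5-fold (6.95 ± 0.16), Il18 5.86-fold (2.55 ± 0.051) and Il1rn, the receptor antagonist that blocks interleukin-1, 39.6-fold (5.31 ± 0.091). Il1a lay low on the scale in CON, at 4.40, 3.84 and 3.83, where 18.2% of genes averaged below 4. The part of background signal in its fold was not tested. In SPIO against CON 1 of the 5 genes was called higher and 4 lower (19.6% and 14.2% of all genes). The higher was Il1a, at 4.52, 4.59 and 4.24 in SPIO, against 4.40, 3.84 and 3.83 in CON. These arrays overlapped and lay low on the scale in both groups, and the part of background signal in this call was not tested. After iron oxide without LPS, Il1b was 2.85-fold lower, at 5.48, 5.66 and 5.67 in SPIO (-1.51 ± 0.082, limma adjusted p = 1.85e-09). With LPS it reached 13.60, 13.60 and 13.56 in SPIO-LPS, and its difference from LPS did not pass (-0.16 ± 0.082, 95% interval -0.33 to 0.02, limma adjusted p = 0.171). Array maxima ran from 14.5 to 14.6, so the Il1b and Cd14 signals under LPS lay near the upper end of the scale, where differences can be understated.

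Il18, Il1rn and Il18bp were lower after iron oxide with and without LPS. In SPIO against CON the differences were -0.49 ± 0.051 for Il18, -0.41 ± 0.091 for Il1rn and -0.29 ± 0.064 for Il18bp (limma adjusted p = 1.96e-06, 0.00242 and 0.00214). Il18 read 10.17, 10.16 and 10.19 in SPIO-LPS, against 10.76, 10.84 and 10.75 in LPS (-0.61 ± 0.051, 1.52-fold, limma adjusted p = 1.83e-07). Il1rn averaged 10.95 ± 0.0048 in SPIO-LPS and 12.08 ± 0.094 in LPS (SD, n = 3 each; -1.14 ± 0.091, 2.20-fold, limma adjusted p = 1.09e-07). Il18bp read 8.23, 8.43 and 8.40 in SPIO-LPS, against 8.87, 8.92 and 8.91 in LPS (-0.55 ± 0.064, limma adjusted p = 7.08e-06). Every SPIO-LPS array was below every LPS array for these genes. Silica-LPS did not differ from LPS beyond the threshold, at -0.02 ± 0.051 for Il18, -0.14 ± 0.091 for Il1rn and -0.11 ± 0.064 for Il18bp (limma adjusted p = 0.883, 0.475 and 0.397).

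Of 11 neighbours of caspase-8 in death-receptor and necroptosis signalling, LPS raised 8 and lowered 0, beside 22.2% and 36.1% of all genes. Zbp1, a sensor of nucleic acids that engages RIPK3, rose by 3.91 ± 0.071 on the log2 scale, and Cflar, which encodes the caspase-8 regulator cFLIP, rose 5.16-fold (2.37 ± 0.055; limma adjusted p = 1.34e-16 and 2.44e-15). Cflar was higher in SPIO-LPS, at 11.89, 11.97 and 11.93, than in LPS, at 11.59, 11.73 and 11.46 (0.33 ± 0.055, limma adjusted p = 0.000183). Bid, a caspase-8 substrate that carries the signal to mitochondria, was higher too (0.53 ± 0.040, limma adjusted p = 5.21e-08). Ripk3, a kinase of necroptosis, was lower (-0.28, limma adjusted p = 0.00336), and Fadd, the adaptor of caspase-8, did not pass in LPS against CON (-0.16) or in SPIO-LPS against LPS (0.18). Tnfaip3, an inhibitor of NF-kB, was the single listed gene called in Silica-LPS against LPS, at 7.79, 7.71 and 8.16 in Silica-LPS, against 7.42, 7.19 and 7.39 in LPS (0.55 ± 0.12, limma adjusted p = 0.0205). Without LPS replicate 2 or Silica-LPS replicate 3, 0 listed genes were called in that comparison by limma.

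Of 5 other caspases measured, 3 fell with LPS and 1, Casp12, rose, where 36.1% of all genes fell and 22.2% rose. Casp9, the initiator of the mitochondrial pathway, stood at -1.49, the effector Casp6 at -1.02 and Casp2 at -0.77 in LPS against CON. Of 5 pore and membrane rupture genes LPS raised 3, each by less than 1 on the log2 scale. Ninj1, which ruptures the membrane of dying cells, was higher in SPIO-LPS than in LPS (0.35), as was the gasdermin Gsdme (0.31). Among 4 protease inhibitors LPS raised 3, led by Serpinb2 (3.17 ± 0.071). Serpinb2 was lower than its control in SPIO (-0.65 ± 0.071), in Silica (-0.38 ± 0.071) and in SPIO-LPS (-1.06 ± 0.071). Serpinb2 and Zbp1 (-0.26) were the 2 listed genes called lower in Silica against CON. A fit on Silica and CON alone, or with a replicate block, called 1 listed gene lower there.

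**Figure D4:**
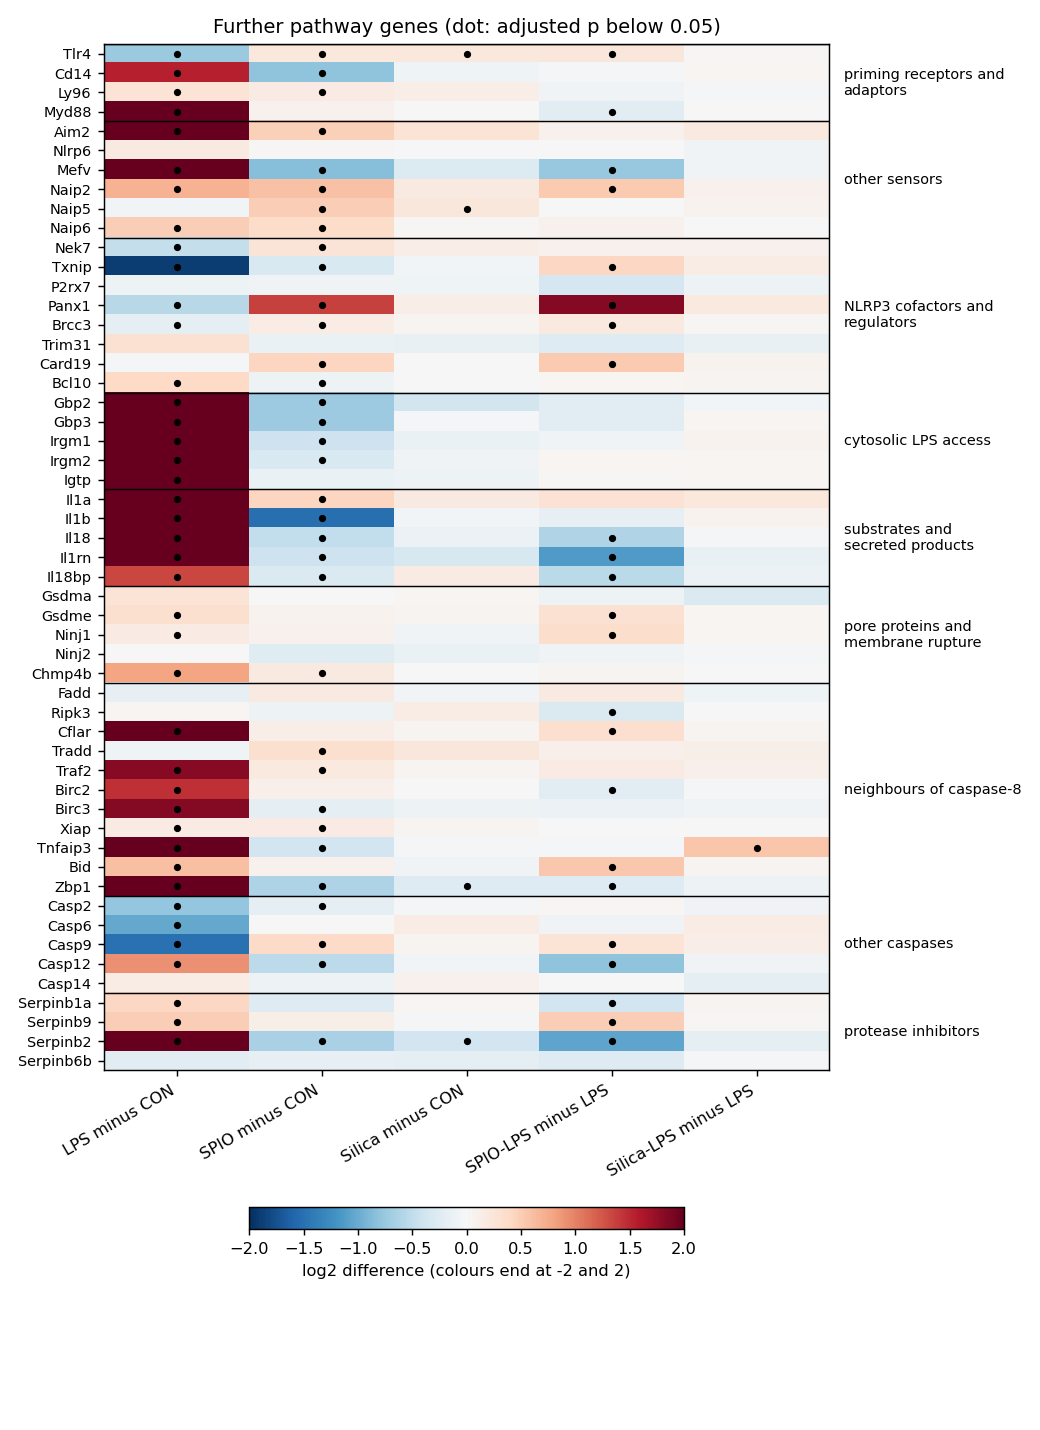
Log2 differences of the 53 further pathway genes, grouped by role, in 5 comparisons; colours end at -2 and 2, and a dot marks a called gene. The column for LPS minus CON is called for 41 genes, those for SPIO minus CON and SPIO-LPS minus LPS for 34 and 23, and the silica columns for 4 and 1. In the same order, 58.2%, 33.8%, 32.7%, 4.02% and 2.86% of all genes were called.

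All 9 macrophage markers were measured, with CON means from 9.33 for Itgam to 14.4 for Lyz2, while markers of T, NK and B cells had CON means of 3.13 to 5.61. Markers of neutrophils and fibroblasts were also present and moved with iron oxide: 8 of 10 neutrophil genes were lower in SPIO than in CON and 1 was higher, and 5 of 10 fibroblast genes were lower and 0 higher (limma), where 14.2% of all genes were lower and 19.6% higher. In SPIO-LPS against LPS these were 7 lower and 1 higher of 10, and 6 lower and 0 higher of 10. Of all genes, 14.6% were lower and 18.2% higher there. Of the macrophage markers 6 were lower in SPIO than in CON and 2 higher. On the log2 scale the summed neutrophil signal was 13.93 to 13.98 in SPIO, against 14.40 to 14.49 in CON, and 13.92 to 13.95 in SPIO-LPS, against 14.33 to 14.37 in LPS. The summed fibroblast signal was 14.41 to 14.45 in SPIO, against 14.68 to 14.71 in CON, and 14.08 to 14.12 in SPIO-LPS, against 14.36 to 14.43 in LPS. Their part in the differences of the inflammasome genes was not tested, and in whole cultures fewer cells of a type cannot be told apart from less RNA per cell. The excess of the 3′ over the 5′ signal of Gapdh, a sign of RNA quality read on control probe sets in log2 units, was 0.47 ± 0.026 (SD, n = 3) in SPIO and 0.69 ± 0.039 in CON, and 0.40 ± 0.064 in SPIO-LPS and 0.52 ± 0.050 in LPS. For Actb it was 0.66 ± 0.015 in SPIO and 0.59 ± 0.017 in CON, and 0.52 ± 0.014 in SPIO-LPS and 0.38 ± 0.053 in LPS, where it ran opposite to Gapdh. Both were lower in LPS than in CON. The part of RNA quality in the differences was not tested.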

How the data were processed

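The deposited table holds log2 signals per probe set that the authors made with RMA, per the submitters' processing notes, which name neither a version nor a program here. It carries neither detection calls nor counts, and precision is set by the 3 arrays of each group (median standard error of a difference 0.080).

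Of 22626 probe sets besides controls, 20380 had 1 symbol, updated by gene ID. For each of 12393 genes the probe set brightest on average was used. Of these genes, 4956 had more than 1 probe set. For the further genes, such as Il1rn with 3 and Cflar with 4, the others are not shown singly. In R 4.3.3, limma 3.58.1 (lmFit, contrasts.fit, eBayes) was fitted to all 18 arrays with 1 mean per group, for 11 contrasts, with Benjamini-Hochberg adjustment over all genes of a contrast. Standard errors are those of this model. The procedure was tested on simulated data. Figures were drawn with matplotlib 3.10.9.

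Members and lists were chosen with earlier results of these data known. Named were all members, the listed genes of receptors, sensors, substrates and caspase-8 neighbours, those with the largest called changes, and the 3 genes most correlated with each member. Nek7, Irgm1, Irgm2, Ninj1, Gsdme, Casp2, Casp6 and Casp9 were chosen after their values were seen. Alternatives were a block for the replicate number, a fit on only the groups compared, a variance trend with robust prior, a filter on dim genes, averaging or exchanging probe sets of 1 gene, scaling by cyclic loess, and leaving out each array of the compared groups in turn.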

Additional observations from a re-analysis of the deposited data

Results flagged for a closer look

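The response to LPS differed after iron oxide from that after plain medium, by an interaction term in limma, for 3 of the 5 measured members and 16 of the 53 further genes, beside 8.8% of all genes. For the members the log2 interaction was 0.76 for Nlrp3 (adjusted p = 0.00439), -0.62 for Pycard (adjusted p = 3.53e-06) and -0.29 for Casp1 (adjusted p = 0.0183). For Nlrp3 and Casp1 the SPIO and CON levels were apart without LPS while those of SPIO-LPS and LPS did not differ past the threshold. For Pycard on its brighter probe set it was the levels under LPS that were apart. On the dimmer Pycard probe set SPIO against CON passed (0.39, limma adjusted p = 0.0124). There SPIO-LPS against LPS did not pass (-0.18, limma adjusted p = 0.261).

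Il1b had the largest interaction of the further genes (1.36, adjusted p = 1.79e-06), followed by Cd14 (0.78, adjusted p = 3.54e-07) and Txnip (0.72, adjusted p = 1.79e-06). The Il1b and Cd14 signals under LPS lay near the upper end of the scale, where differences can be understated, and the part of this in their interactions was not tested. Higher as well were Panx1 (0.46), Bid (0.45), Zbp1 (0.36), Irgm2 (0.34), Irgm1 (0.33), Ninj1 (0.27) and Casp2 (0.22). Lower were Il1rn (-0.73, adjusted p = 0.00156), Naip5 (-0.48), Serpinb2 (-0.42), Aim2 (-0.40), Birc2 (-0.33) and Myd88 (-0.28). The interaction of silica with LPS was called for 0 of these genes by limma. In that of iron oxide, Irgm2, Aim2, Casp2 and Zbp1 stood closest to the threshold (limma adjusted p = 0.0491, 0.0421, 0.0386 and 0.0333).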

How the results depend on the processing

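Of 731 values for single members under an alternative, 706 stayed on their side of the threshold, 15 lost it and 10 gained it. The sign turned in 17 of the 731, each at most 0.20 in size and of a difference that was not called. Silica calls moved most: against 498 genes in Silica against CON, the compared groups alone gave 110, a variance trend with robust prior 850 and the filter on dim genes 755, with 1, 9 and 9 listed genes against 4. In Silica-LPS against LPS (355 genes) these settings gave 63, 577 and 536, with 0, 3 and 2 listed genes against 1, and the mean of probe sets gave 2. The silica interaction (2 genes) had 0, 40 and 5, then 1 with the mean of probe sets, 1 with cyclic loess and 0 with the replicate block, and the variance trend called 1 listed gene. Of the 5 members, 1 was called in SPIO against Silica, 2 with the variance trend or cyclic loess and 3 with the dim filter. Against 16 listed genes in the iron oxide interaction, the compared groups alone gave 11 and the replicate block 14. Cyclic loess gave 18 there, the mean of probe sets 19, the dim filter 22 and the variance trend 23. The causes were not tested.

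Leaving out 1 array in turn gave 203 to 381 genes and 1 to 4 listed genes in Silica against CON (lowest without CON replicate 2 and without Silica replicate 1), 186 to 333 and 0 to 2 in Silica-LPS against LPS, and 0 to 2 genes for the silica interaction. Members called ran from 1 (without SPIO-LPS replicate 3) to 3 in SPIO-LPS against Silica-LPS, and from 2 to 3 in SPIO against CON and in the iron oxide interaction. For that interaction, the listed genes called ran from 11 to 16.

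Same-numbered arrays did not deviate together: 8 of 45 pairs had a correlation over 0.1, and 5 of 18 arrays correlated best with their own number. The replicate block gave 445 genes in Silica against CON and 4110 in SPIO against CON, with 0 and 3 members called as without it. Pycard fell past the threshold with LPS after silica too, but not with cyclic loess (-0.10, adjusted p = 0.0583). Cyclic loess moved the share of higher calls in Silica against CON to 48.3%, against 61.0%, and in Silica-LPS against Silica to 48.6%, against 37.5%. In LPS against CON cyclic loess gave 3272 genes higher and 3620 lower, against 2747 and 4469. The share of higher calls was 47.5% there, against 38.1%. Of the 53 listed genes 36 were then higher and 7 lower, against 33 and 8. With 3 arrays per group, the median 95% interval, before adjustment, reached 0.17 to either side of a log2 difference between groups. Changes below that were mostly not detectable, and larger ones could still miss the adjusted threshold. Nlrp3 did so at -0.26 in Silica against CON and at 0.47 in the silica interaction. Interactions also had larger standard errors, for Nlrp3 0.15 against 0.11.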
